A study of Mus musculus with 24 samples.

Results

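The genes described here run the cell division cycle and the copying of DNA. They are 39 listed genes in 3 groups by role: 17 cyclins, cyclin-dependent kinases, kinase inhibitors and members of the RB/E2F switch, 13 replication genes and 9 mitosis genes. Each gene was represented by the probe set that the platform annotation gives to that gene alone and, where there were several, by the one with the highest mean over all 24 arrays. A single-gene probe set was found for 38 of the 39, among 18193 genes so annotated, and none for the mitotic cyclin gene Ccnb1. Of the 38, 37 passed a filter on low values (3 or more of the 24 arrays with a log2 value no lower than 5), as did 9504 genes in all. The kinase inhibitor gene Cdkn2c did not pass, with log2 values of 1.32 to 1.44 on all arrays.

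The values are log2 expression values from Affymetrix MG 430 2.0 arrays, each hybridised with 1 RNA sample from mouse embryonic stem cells of the strain 129/Sv, kept undifferentiated. The knock-out group (6 arrays) is labelled null for Hdh, the mouse huntingtin gene now called Htt. Each knock-in line (3 arrays) carries an allele of 7 CAG repeats and a longer one, which has 16 repeats in Q20, 85 in Q91 and 111 in Q111. In Q50 it has 45 repeats in replicates 1 and 2 and 43 in replicate 3. The control group (6 arrays) has 7 repeats on both alleles. The titles and genotype labels were followed throughout, although the description field has the control and knock-out arrays the other way round. The Htt probe set with the highest mean, 1 of 3 past the filter, averaged 7.21 ± 0.27 in log2 in the knock-out. In control it averaged 8.01 ± 0.29 (SD, n = 6 each), a difference of -0.80 (SE 0.16, limma adjusted p = 0.00195). Htt was also lower in Q91 (change -1.05) and Q111 (change -0.79), whose arrays overlapped those of the knock-out, and where this probe set lies relative to the deleted part was not stated in the labels. Each genotype may be 1 clone, and the titles call the arrays biological replicates without saying whether these were separate clones or cultures. The p-values therefore describe the spread between these arrays. Line and repeat length cannot be told apart, because each repeat length comes in 1 line.

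As background, D-type cyclins with Cdk4 or Cdk6, and E-type cyclins with Cdk2, phosphorylate the RB protein and so release E2F factors, which switch on genes needed for S phase. Cdc6 and Cdt1 load the MCM helicase ring, made of Mcm2 to Mcm7, onto origins before S phase, geminin (Gmnn) blocks reloading, and Pcna then clamps the polymerases to the DNA. Aurora and Polo-like kinases and the spindle checkpoint proteins Bub1 and Bub1b govern chromosome segregation. Mouse embryonic stem cells are known for a short G1 phase and little dependence on the RB restriction point.

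Promoter sequences are shown for a few of the genes because the replication and mitosis groups are classically read by different motifs, E2F sites and the cell cycle homology region (CHR). RefSeq windows (build GRCm38.p6) from 250 bases before to 30 bases after the annotated start were found for 31 of the 39 genes, as 34 windows of 280 bases. The letters searched on both strands were TTTGGCGC, TTTCCCGC, TTTGCCGC and TTTCGCGC for E2F, TTTGAA and TTCGAA for CHR, and CCAAT. An E2F match was present in 23.5% of the 34 windows and in 2.12% of all 32851 windows in the table. By role it was found in 41.7% of the 12 replication windows, 21.4% of the 14 cyclin, kinase and RB/E2F windows and 0 of the 8 mitosis windows. CHR matches had another distribution, with 62.5% of mitosis windows, 16.7% of replication windows, 14.3% of cyclin, kinase and RB/E2F windows and 18.4% of all windows. CCAAT occurred in 67.6% of the 34 windows and 36.1% of all. No E2F match shared bases with a CHR match in the 34 windows, and 1 window had an E2F match overlapping CCAAT. These matches are descriptions of letters, and no factor binding was measured. The windows below are printed 5′ to 3′ on the gene's strand with E2F and CHR matches in capitals. Mcm3, Mcm5 and Mcm6 are helicase subunits with E2F matches, Cdk1 has both kinds of match, and Bub1b and Top2a are mitosis genes with CHR matches.
Mcm3: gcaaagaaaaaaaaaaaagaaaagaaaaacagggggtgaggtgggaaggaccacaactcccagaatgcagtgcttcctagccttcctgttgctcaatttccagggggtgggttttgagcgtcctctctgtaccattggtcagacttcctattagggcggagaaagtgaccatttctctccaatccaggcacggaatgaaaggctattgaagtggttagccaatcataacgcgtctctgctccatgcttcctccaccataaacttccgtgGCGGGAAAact
Mcm5: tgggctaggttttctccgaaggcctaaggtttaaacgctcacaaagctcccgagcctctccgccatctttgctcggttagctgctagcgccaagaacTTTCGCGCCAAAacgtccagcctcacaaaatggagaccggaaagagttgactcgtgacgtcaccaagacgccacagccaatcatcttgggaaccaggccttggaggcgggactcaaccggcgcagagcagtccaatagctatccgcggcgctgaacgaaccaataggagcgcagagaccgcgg
Mcm6: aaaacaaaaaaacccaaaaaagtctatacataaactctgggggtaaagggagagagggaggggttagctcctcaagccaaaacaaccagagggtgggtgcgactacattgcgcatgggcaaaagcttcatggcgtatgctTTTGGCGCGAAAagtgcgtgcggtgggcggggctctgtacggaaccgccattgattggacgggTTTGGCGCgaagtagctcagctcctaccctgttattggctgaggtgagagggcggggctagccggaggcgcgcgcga
Cdk1: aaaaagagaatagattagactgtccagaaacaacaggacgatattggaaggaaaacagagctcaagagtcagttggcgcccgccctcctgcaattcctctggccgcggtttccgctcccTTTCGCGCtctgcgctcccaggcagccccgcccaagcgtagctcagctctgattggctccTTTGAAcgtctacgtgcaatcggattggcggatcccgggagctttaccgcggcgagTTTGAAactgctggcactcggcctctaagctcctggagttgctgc
Bub1b: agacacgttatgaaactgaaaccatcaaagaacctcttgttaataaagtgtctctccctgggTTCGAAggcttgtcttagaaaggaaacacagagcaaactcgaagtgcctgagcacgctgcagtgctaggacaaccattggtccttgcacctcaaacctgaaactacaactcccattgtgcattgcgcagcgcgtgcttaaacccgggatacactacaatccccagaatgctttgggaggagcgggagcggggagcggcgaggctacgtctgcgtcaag
Top2a: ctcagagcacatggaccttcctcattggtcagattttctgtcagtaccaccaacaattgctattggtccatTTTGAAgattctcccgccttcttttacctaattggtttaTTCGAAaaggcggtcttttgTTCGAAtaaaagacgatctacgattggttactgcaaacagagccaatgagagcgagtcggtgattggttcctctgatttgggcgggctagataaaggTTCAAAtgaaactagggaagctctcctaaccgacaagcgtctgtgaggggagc
The Mcm3 window lies at chr1:20820283-20820562 on the minus strand and Mcm6 at chr1:128359676-128359955 on the minus strand. Mcm5 was read from chr8:75109259-75109538 on the plus strand and Cdk1 from chr10:69352883-69353162 on the minus strand. Bub1b lies at chr2:118597961-118598240 on the plus strand and Top2a at chr11:99024160-99024439 on the minus strand.

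The share of probe sets at or above 5 in log2 was 36.8% to 38.0% per array. The difference between the 3' and 5' Actb probe sets, a measure of RNA integrity, was 1.54 in log2 on Q50 replicate 3 and 0.75 to 1.03 on the other arrays. Control and knock-out replicates 1 to 3 differ from replicates 4 to 6 in several of the genes below, so knock-out results are also given within each set. All 8 embryonic stem cell markers averaged 5 or more in each group. Their summed level was 17.36 to 17.44 in the knock-out, against 17.33 to 17.43 in control. In the lines it was 17.05 to 17.32 (Q20), 17.32 to 17.44 (Q50), 17.04 to 17.30 (Q91) and 17.09 to 17.39 (Q111). Of the 8, 3, 4 and 3 were called lower in Q20, Q91 and Q111 (37.5%, 50% and 37.5%, against 9.00%, 9.49% and 9.49% of all probe sets). In Q20, Q91 and the knock-out 1 was called higher (12.5%, against 16.2%, 12.7% and 7.42% of all probe sets). The knock-out also had 1 lower (12.5%, against 7.17%), and Q50 had 0 calls. Summed primed epiblast markers (5 genes) reached 10.45 to 11.44 in log2 in the knock-out. In the lines this sum was 13.17 to 13.85 (Q20), 12.67 to 13.31 (Q50), 13.40 to 13.76 (Q91) and 13.55 to 13.75 (Q111), against 11.89 to 12.51 in control. Summed fibroblast (feeder) markers (10 genes) reached 6.24 to 6.85 in the knock-out, and 9.90 to 12.94 (Q20), 9.19 to 12.02 (Q50), 12.34 to 14.25 (Q91) and 11.85 to 12.36 (Q111) in the lines, against 6.64 to 7.90 in control. Of the 10, 5 averaged 5 or more in Q111, 4 in Q91, 3 in Q20, 2 in Q50, 0 in the knock-out and 1 in control, while Col3a1, Dcn, Lum and Postn stayed below 5 on all arrays. Tagln and Thbs1 were the 2 at 5 or more in Q50, and Tagln averaged 9.89 to 12.56 in the lines, against 4.69 in control. Thy1, the marker at 5 or more in control, averaged 3.30 in the knock-out and 4.29 to 5.34 in the lines, against 5.97 in control. The primed epiblast and fibroblast sums, each the log2 of summed linear signals, thus lay above control on every array of the 4 lines. Dnmt3b had the highest mean of the primed epiblast markers in each group and weighs most in their sum. Pou3f1 lay above control on every line array, but Otx2 reached down to 7.58 in Q91 (control 8.30 to 9.77). Fgf5 reached down to 2.03 in Q50 (control 2.00 to 2.15), and Dnmt3b to 12.15 in Q50 (control up to 12.33). The genes called below numbered 12 in Q20, 2 in Q50, 6 in Q91 and 15 in Q111. The part of these markers in the results below was not tested.

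Of the cell cycle genes that passed the test, most were higher than control in huntingtin-null cells and lower than control in knock-in cells. In the knock-out 9 of the 37 genes passed the test (24.3%, against 14.6% of all probe sets), 7 of them higher (background 7.42%) and 2 lower (background 7.17%). After centring each array on the median of its tested probe sets (median centring) the counts were 4 and 2. In the lines most calls were lower: 2 higher and 10 lower in Q20 (32.4% of the genes, background 25.2%), 1 higher and 1 lower in Q50 (5.41%, background 8.0%; 0 and 2 after centring), 0 higher and 6 lower in Q91 (16.2%, background 22.2%) and 0 higher and 15 lower in Q111 (40.5%, background 25.7%). Among all probe sets 16.2% were higher and 9.00% lower in Q20, 5.70% and 2.30% in Q50, 12.7% and 9.49% in Q91, and 16.2% and 9.49% in Q111. After median centring the genes called lower numbered 17 in Q20, 10 in Q91 and 20 in Q111, and the balance over all probe sets turned, with 2205 higher and 2827 lower in Q20, 1854 and 2424 in Q91 and 2200 and 3161 in Q111. The shares in Q50 and Q91 were below the background. The comparisons are limma tests of each group against the same 6 control arrays, with Benjamini-Hochberg adjustment over 17980 probe sets and a threshold of 0.05, so they are not independent of each other. The median change of the 37 genes was 0.07 in the knock-out, -0.12 in Q20, 0.01 in Q50, -0.13 in Q91 and -0.27 in Q111, while the median of all probe sets lay between -0.00 and 0.04. With replicates 1 to 3 of control and knock-out alone 3 genes passed in the knock-out, where 4.66% of all probe sets passed. With replicates 4 to 6 alone 0 genes did, against 5.83% of all probe sets (limma). In that set 7 genes had an unadjusted p under 0.05 (18.9%, against 21.2% of all probe sets). Measured against control replicates 4 to 6 alone, 2 genes passed in Q20, 0 in Q50 (5 at an unadjusted p under 0.05), 3 in Q91 and 4 in Q111. The genes lower in that comparison were Ccnd3 and Bub1b in Q20, Ccnd3 and Cdt1 in Q91 and Ccnd3, Mcm2, Rrm2 and Bub1b in Q111. Against control replicates 1 to 3 alone 12, 2, 4 and 14 passed in Q20, Q50, Q91 and Q111, and the shares of all probe sets are not given here. Whether cells in some phase of the cycle were fewer or each cell held less of these RNAs cannot be told apart in bulk RNA.

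**Figure D1:**
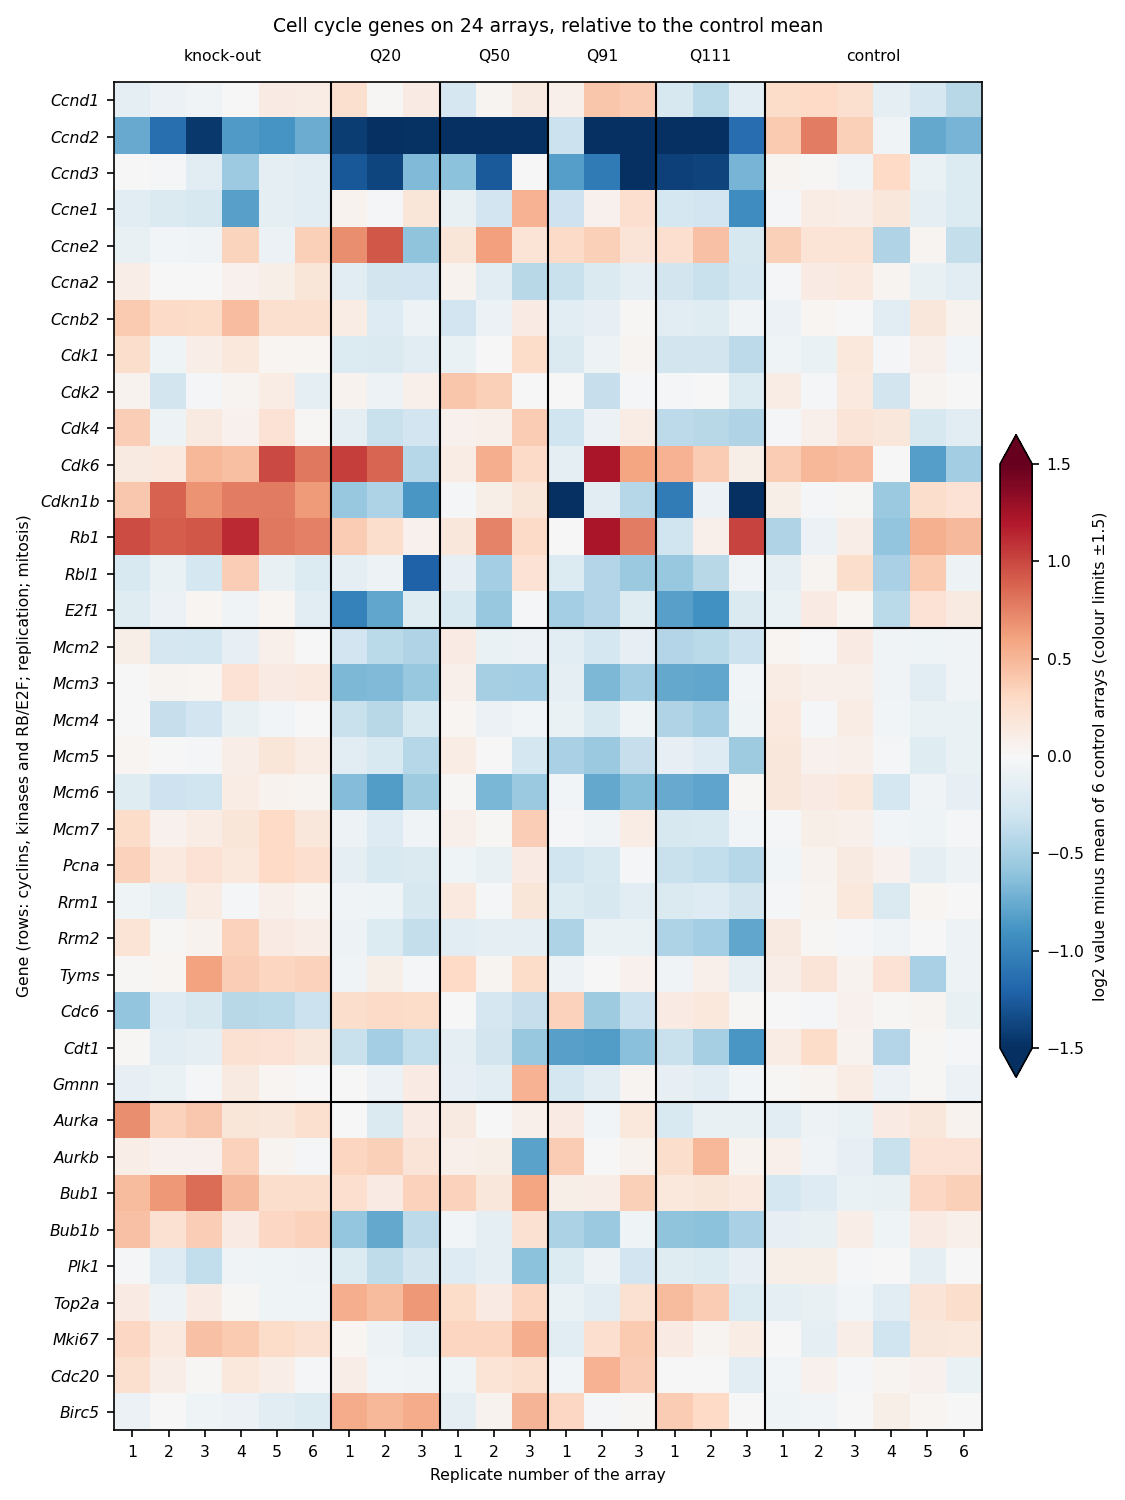
Log2 value of each of the 37 genes (rows, grouped by role) on each array (columns, by group and replicate number), minus the mean of the 6 control arrays, with colours limited at 1.5. The blue band of Ccnd2 and Ccnd3 in the knock-in columns, the paler blue block of replication genes in Q20 and Q111, and the red Rb1 row in the knock-out stand out.

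By role, genes of all 3 groups were called lower in at least 1 line, the mitosis genes in Q91 and Q111 near the background share. In Q111, 7 of 15 cyclin, kinase and RB/E2F genes, 7 of 13 replication genes and 1 of 9 mitosis genes fell, with median changes of -0.31, -0.35 and 0.09. These were 46.7%, 53.8% and 11.1%, against 9.49% of all probe sets. In Q20 the counts were 3 of 15, 5 of 13 and 2 of 9 lower (20%, 38.5% and 22.2%, against 9.00%), and the medians were -0.20, -0.21 and 0.00. There 2 mitosis genes were higher (22.2%, against 16.2%). In Q91, 2 of 15, 3 of 13 and 1 of 9 fell (13.3%, 23.1% and 11.1%, against 9.49%). In Q50 the single fall was a cyclin (6.67% of its group, against 2.30%) and the single rise a mitosis gene (11.1%, against 5.70%). The median value of an array's tested probe sets lay on average 0.11 higher in Q20 and 0.12 higher in Q111 than in control. Centring every array on this median moved the mitosis medians to -0.10 in Q20 and -0.03 in Q111, so the mitosis group has no settled direction there. It moved the replication medians to -0.32 and -0.47. Differences between the role groups were not tested.

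The D-type cyclins carry growth signals into G1, and 2 of the 3, Ccnd2 and Ccnd3, fell in the lines. Ccnd2 was 7.92 to 8.62 in log2 with a median of 8.50 in the knock-out, and 8.60 to 10.13 with a median of 9.52 in control. It stood at 7.95, 7.64 and 7.89 in Q20, at 7.85, 7.35 and 7.41 in Q50, at 9.04, 7.00 and 6.98 in Q91 and at 7.36, 7.55 and 8.23 in Q111. All Q20, Q50 and Q111 arrays lay below all controls, whereas Q91 replicate 1 and knock-out replicates 1 and 6 reached into the control range. Ccnd2 was the only gene of the 37 to pass in all 4 lines: its change was -1.54 in Q20 (SE 0.38, limma adjusted p = 0.00512), -1.83 in Q50 (adjusted p = 0.00559), -1.69 in Q91 (adjusted p = 0.00275) and -1.65 in Q111 (adjusted p = 0.00279). In the knock-out it fell by 0.97 (SE 0.31, limma adjusted p = 0.0377). Against control replicates 4 to 6 alone none of these 4 line calls of Ccnd2 held, with changes of -1.04 in Q20 (adjusted p = 0.132), -1.32 in Q50 (adjusted p = 0.115), -1.19 in Q91 (adjusted p = 0.0905) and -1.15 in Q111 (adjusted p = 0.0921). Of 7 probe sets of Ccnd2 past the filter, all 7 were called lower in Q111, 6 in Q20 and in Q91, 5 in Q50 and 2 in the knock-out. The controls themselves were split, with 9.32 to 10.13 on replicates 1 to 4 and 8.60 and 8.66 on replicates 5 and 6. The knock-out change was -1.62 (adjusted p = 0.0411) when only replicates 1 to 3 of both groups were compared and -0.32 (adjusted p = 0.734) with replicates 4 to 6 alone. Leaving out any 1 of control replicates 1 to 4 or knock-out replicates 2 to 6 also ended the knock-out call, with adjusted p of 0.0504 to 0.0921.

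Ccnd3, a second D-type cyclin, fell in 3 lines and not detectably in the knock-out. Its knock-out arrays ran from 11.84 to 12.40 (median 12.24) and its control arrays from 12.18 to 12.68 (median 12.37). It was 11.11, 11.01 and 11.72 in Q20, 11.77, 11.13 and 12.38 in Q50, 11.57, 11.33 and 10.87 in Q91 and 10.98, 11.00 and 11.69 in Q111. All arrays of Q20, Q91 and Q111 were below all controls, and Q50 replicate 3 was within the control range. The changes were -1.11 in Q20 (SE 0.23, limma adjusted p = 0.0014), -1.13 in Q91 (adjusted p = 0.00115) and -1.16 in Q111 (adjusted p = 0.000824), with -0.63 in Q50 (adjusted p = 0.0894) and -0.17 in the knock-out (adjusted p = 0.597). These 3 line calls held under each alternative tried and without any single array. Ccnd1, the remaining D-type cyclin, passed in no comparison: its changes lay between -0.27 (Q111) and 0.29 (Q91), although against control replicates 4 to 6 alone it was higher in Q91 (0.57, limma adjusted p = 0.0158).

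**Figure D2:**
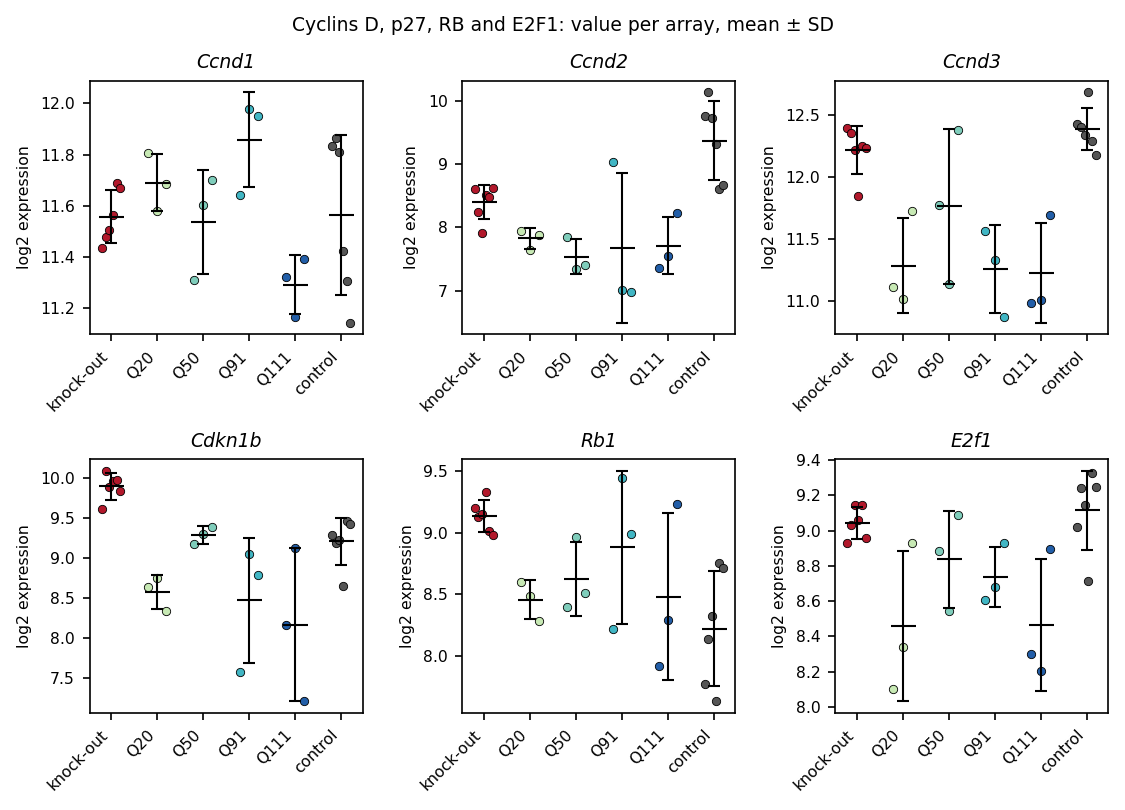
Log2 value per array (points), group mean (dash) and SD (bars) for 6 genes of the G1 switch, in the knock-out, the 4 knock-in lines and control. Ccnd2 and Ccnd3 lie lower in the lines than in control, Ccnd1 does not separate the groups, and Cdkn1b and Rb1 lie above control on every knock-out array.

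Of the other cyclins and kinases, 3 fell in Q111 and 1 rose in the knock-out. Ccna2, the S and G2 phase cyclin, fell by 0.29 in Q111 (SE 0.09, limma adjusted p = 0.0247), and Cdk1, the mitotic kinase, fell by 0.31 there (SE 0.09, adjusted p = 0.0177). The other tested probe set of Ccna2 changed by -0.15 in Q111 and was not called. Cdk4, the partner of the D-type cyclins, was 12.82, 12.79 and 12.75 in Q111, below all controls (12.97 to 13.40), and fell by 0.42 (SE 0.12, adjusted p = 0.0123). The mitotic cyclin Ccnb2 was higher in the knock-out by 0.32 (SE 0.08, adjusted p = 0.0103), with every knock-out array (11.80 to 12.03) above every control (11.40 to 11.74). Without Q111 replicate 3 the Cdk1 call ended (adjusted p = 0.0751), and the Ccna2 call ended without control replicate 2 or 3 or Q111 replicate 1 or 2 (adjusted p of 0.0511 to 0.0936). The E-type cyclins Ccne1 and Ccne2, the kinases Cdk2 and Cdk6 and the RB relative Rbl1 passed in no comparison with the probe sets used here. Of these, Ccne1 came nearest in Q111, at -0.49 (limma adjusted p = 0.0527), and its other tested probe set was called there. The other tested probe set of Rbl1 was called lower in Q91 (-1.39, adjusted p = 0.000354) and in the comparison among lines, and higher in the knock-out against the mean of the lines (1.14). Cdk6 changes were as large as those of some called genes but missed the threshold, at 0.50 in the knock-out (adjusted p = 0.238), 0.50 in Q20 (adjusted p = 0.301) and 0.56 in Q91 (adjusted p = 0.257).

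Cdkn1b encodes p27, an inhibitor of cyclin-dependent kinases. Its knock-out arrays ran from 9.61 to 10.10 (median 9.93) and its control arrays from 8.65 to 9.47 (median 9.26). In the lines it was 8.64, 8.75 and 8.33 in Q20, 9.18, 9.30 and 9.39 in Q50, 7.57, 9.05 and 8.78 in Q91 and 8.16, 9.13 and 7.21 in Q111. All knock-out arrays lay above control, while the Q91 and Q111 arrays ranged from the control level to far below it. Only Q111 passed, at -1.04 (SE 0.31, limma adjusted p = 0.0156), and the call ended without Q111 replicate 1 or 3 (adjusted p of 0.0545 and 0.171). In the knock-out the change of 0.69 missed the threshold (SE 0.25, adjusted p = 0.0684).

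Rb1, the retinoblastoma gene that holds E2F in check, rose in the knock-out. Its arrays there ran from 8.98 to 9.34 (median 9.14), above every control array (7.63 to 8.75, median 8.23), and the change was 0.92 (SE 0.23, limma adjusted p = 0.00993). In the lines it was 8.60, 8.49 and 8.29 in Q20, 8.39, 8.96 and 8.51 in Q50, 8.22, 9.45 and 8.99 in Q91 and 7.92, 8.29 and 9.23 in Q111. No line passed, with changes of 0.24 to 0.66, and the Q91 and Q111 arrays were spread more widely than the controls. The knock-out change was 1.09 (adjusted p = 0.0661) in replicates 1 to 3 alone and 0.74 (adjusted p = 0.261) in replicates 4 to 6 alone.

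E2f1, the activating E2F factor, was 8.93 to 9.14 in the knock-out (median 9.05) and 8.71 to 9.33 in control (median 9.19). It read 8.10, 8.34 and 8.93 in Q20, 8.89, 8.54 and 9.09 in Q50, 8.61, 8.68 and 8.93 in Q91 and 8.30, 8.21 and 8.89 in Q111. In Q20 and Q111, replicates 1 and 2 were below all controls and replicate 3 was within the control range. E2f1 fell by 0.66 in Q20 (SE 0.17, limma adjusted p = 0.00902) and by 0.65 in Q111 (SE 0.17, adjusted p = 0.00921). Its other tested probe set was called lower in Q111 but was not called in Q20 (change -0.48). The Q20 call ended without Q20 replicate 1 (adjusted p = 0.0959), and the Q111 call without Q111 replicate 1 or 2 (adjusted p of 0.0623 and 0.0754).

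Of the 13 replication genes, 5 fell in Q20 (38.5%, against 9.00% of all probe sets lower), 3 in Q91 (23.1%, against 9.49%) and 7 in Q111 (53.8%, against 9.49%). In Q91 the share of all probe sets called in either direction was 22.2%. The median of the 13 genes, relative to their control means, was -0.10 to 0.14 on the knock-out arrays. On the line arrays it was -0.24 to -0.14 (Q20), -0.12 to 0.03 (Q50), -0.24 to -0.12 (Q91) and -0.36 to -0.13 (Q111), against -0.08 to 0.10 on the control arrays. The Q20, Q91 and Q111 arrays thus lay below all control arrays in this median. Of the MCM helicase genes, 4 of 6 fell in Q20, 2 in Q91 and 3 in Q111, none passed in Q50 or the knock-out, and 5 of the 6 had a change below 0 in all 4 lines, the exception being Mcm7. These counts use 1 probe set per gene, and in Q111 3 of the 4 tested Mcm7 probe sets and 1 of the 3 of Mcm5 were called lower as well.

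Mcm3 ran from 14.11 to 14.33 in the knock-out (median 14.19) and from 13.95 to 14.22 in control (median 14.12). It was 13.44, 13.45 and 13.54 in Q20, 14.18, 13.62 and 13.60 in Q50, 13.98, 13.43 and 13.59 in Q91 and 13.34, 13.33 and 14.07 in Q111. The values came in 2 levels, with Q50 replicate 1, Q91 replicate 1 and Q111 replicate 3 in the control range and all other knock-in arrays below it. Mcm3 changed by -0.63 in Q20 (SE 0.15, limma adjusted p = 0.00468), -0.44 in Q91 (adjusted p = 0.0422) and -0.53 in Q111 (adjusted p = 0.014), and its 5 tested probe sets were called lower 4, 3 and 5 times in these lines. The Q111 call ended without Q111 replicate 1 or 2 (adjusted p of 0.108 and 0.112), and the Q91 call without any 1 of control replicates 1, 2, 3 or 6 or Q91 replicates 2 or 3 (adjusted p of 0.0518 to 0.243).

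Mcm6 had the same 3 arrays near control. It ran from 13.55 to 13.98 in the knock-out (median 13.79) and from 13.61 to 14.03 in control (median 13.90). It was 13.21, 13.03 and 13.33 in Q20, 13.88, 13.18 and 13.30 in Q50, 13.82, 13.09 and 13.23 in Q91 and 13.11, 13.07 and 13.89 in Q111. Every Q20 array was below every control, and in each other line 1 array was in the control range and the other 2 below it. It passed in Q20 only, falling by 0.67 (SE 0.19, limma adjusted p = 0.0131), and not without Q20 replicate 2 (adjusted p = 0.0717). The changes of -0.41 in Q50, -0.48 in Q91 and -0.51 in Q111 missed the threshold (adjusted p of 0.184, 0.0741 and 0.053).

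Among the other helicase genes, Mcm2 fell by 0.38 in Q20 (SE 0.09, limma adjusted p = 0.00424) and by 0.39 in Q111 (SE 0.09, adjusted p = 0.00343), with all arrays of both lines below all controls, and the Q111 call held under each alternative and without any single array. Mcm4 fell in the same lines, with changes of -0.33 in Q20 (adjusted p = 0.0263) and -0.35 in Q111 (adjusted p = 0.0184), and Mcm5 fell by 0.46 in Q91 (SE 0.11, adjusted p = 0.00348). The other tested probe set of Mcm4 was called in neither Q20 nor Q111, and that of Mcm2 was not called in Q20 (change -0.26). The Mcm4 calls ended without control replicate 1 or 3 or Q20 replicate 1 or 2 in Q20 (adjusted p of 0.0521 to 0.12), and without Q111 replicate 1 or 2 in Q111 (adjusted p of 0.105 and 0.134).

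Cdt1, the factor that brings the helicase to origins, was 12.99 to 13.38 in the knock-out (median 13.25) and 12.72 to 13.42 in control (median 13.19). Its values were 12.81, 12.64 and 12.78 in Q20, 13.01, 12.87 and 12.58 in Q50, 12.34, 12.32 and 12.53 in Q91 and 12.82, 12.66 and 12.28 in Q111. Control replicate 4 was the lowest control, and the Q91 arrays alone were all below it. Cdt1 changed by -0.76 in Q91 (SE 0.14, limma adjusted p = 0.000694), -0.57 in Q111 (adjusted p = 0.00572) and -0.41 in Q20 (adjusted p = 0.0415). Its other tested probe set was not called in Q20 (change -0.35). The Q91 call held under each alternative and without any single array, the Q111 call ended without Q111 replicate 3 (adjusted p = 0.0544), and the Q20 call ended without any 1 array other than control replicate 4 (adjusted p of 0.0531 to 0.152).

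Cdc6, which works with Cdt1 at origins, went the other way. It fell by 0.36 in the knock-out (SE 0.11, limma adjusted p = 0.0311), where its 6 arrays (10.97 to 11.36) were all below control (11.44 to 11.62). In Q20 its arrays (11.82 to 11.85) were all above control, but the change of 0.28 missed the threshold (adjusted p = 0.141). The knock-out change was -0.36 within each set of replicates, with adjusted p of 0.303 in replicates 1 to 3 and 0.244 in replicates 4 to 6. Its call ended without any 1 of control replicates 3, 4 or 5 or knock-out replicates 1, 4 or 5 (adjusted p of 0.0512 to 0.0717).

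Rrm2, the regulated subunit of ribonucleotide reductase, was 14.02 to 14.35 in the knock-out (median 14.12) and 13.93 to 14.14 in control (median 14.00). It was 13.93, 13.80 and 13.65 in Q20, 13.84, 13.87 and 13.86 in Q50, 13.54, 13.91 and 13.91 in Q91 and 13.54, 13.50 and 13.23 in Q111. Q50, Q91 and Q111 arrays all lay below control, and Q111 was lowest. Rrm2 passed in Q111, falling by 0.58 (SE 0.10, limma adjusted p = 0.000254), and that call held under each alternative and without any single array. In Q20, 2 of its 3 tested probe sets were called lower, but not the one used here.

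Pcna, the sliding clamp, rose by 0.24 in the knock-out (SE 0.07, limma adjusted p = 0.0221), with all 6 arrays (15.01 to 15.21) above control (14.73 to 14.99). It fell by 0.38 in Q111 (SE 0.08, adjusted p = 0.00208), where the arrays read 14.52, 14.49 and 14.43. The knock-out call ended without control replicate 5 or knock-out replicate 1 (adjusted p of 0.0506 and 0.0542), and after median centring (0.22, adjusted p = 0.0901). The large reductase subunit Rrm1 fell by 0.23 in Q111 (adjusted p = 0.049), a call lost without any 1 of 8 of the 9 arrays compared (adjusted p of 0.0654 to 0.137). Tyms, which makes thymidylate, and Gmnn passed in no comparison with the probe sets used here. The other tested probe set of Tyms was called higher in the knock-out against the mean of the lines (0.38).

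**Figure D3:**
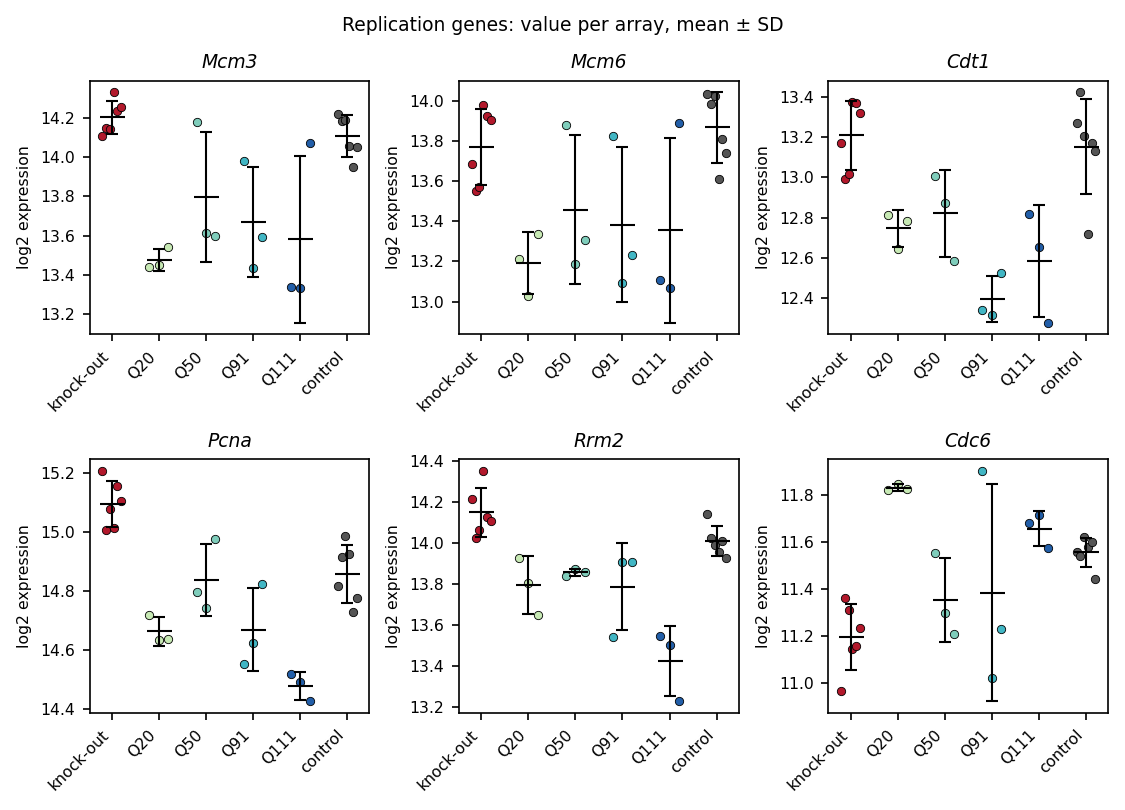
Log2 value per array (points), group mean (dash) and SD (bars) for 6 replication genes. Mcm3 and Mcm6 form 2 levels in Q50, Q91 and Q111, Pcna is above control on all knock-out arrays and below it on all Q20 and Q111 arrays, and Cdc6 is below control on all knock-out arrays.

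Of the 9 mitosis genes, 4 were called higher in the knock-out (44.4%, against 7.42% of all probe sets), among them the checkpoint pair Bub1 and Bub1b, and 2 of the 4 (Bub1 and Mki67) after median centring. Bub1, a spindle checkpoint kinase, rose by 0.50 (SE 0.12, limma adjusted p = 0.00868), averaging 12.10 ± 0.23 in the knock-out and 11.61 ± 0.27 in control (SD, n = 6 each). Aurka, the centrosomal Aurora kinase, rose by 0.34 (SE 0.09, adjusted p = 0.0147) and Mki67, the Ki-67 proliferation antigen, by 0.30 (SE 0.10, adjusted p = 0.0417). The sets of replicates differed: the Bub1 change was 0.84 (adjusted p = 0.0023) in replicates 1 to 3 and 0.15 (adjusted p = 0.622) in replicates 4 to 6, and the Aurka change was 0.60 (adjusted p = 0.00916) and 0.08 (adjusted p = 0.721). The Mki67 change was 0.31 and 0.29 in these sets, passing in neither (adjusted p of 0.237 and 0.299). After median centring the Aurka call ended (adjusted p = 0.053), as did that of Bub1b (0.28, adjusted p = 0.0653). Without any 1 of control replicates 1, 2 or 4 or knock-out replicates 1 or 3 to 6, the Mki67 call ended too (adjusted p of 0.0549 to 0.0978).

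Bub1b, which encodes the checkpoint protein BubR1, rose in the knock-out and fell in 3 lines. It was 11.90 to 12.22 in the knock-out (median 12.11) and 11.66 to 11.90 in control (median 11.78). In the lines it was 11.20, 11.01 and 11.39 in Q20, 11.74, 11.64 and 12.01 in Q50, 11.30, 11.22 and 11.71 in Q91 and 11.17, 11.16 and 11.29 in Q111. Every Q20 and Q111 array was below every control, Q91 replicate 3 was within the control range, and Q50 straddled it. The changes were 0.30 in the knock-out (SE 0.09, limma adjusted p = 0.033), -0.58 in Q20 (SE 0.11, adjusted p = 0.00102), 0.01 in Q50 (adjusted p = 0.955), -0.37 in Q91 (adjusted p = 0.0239) and -0.57 in Q111 (adjusted p = 0.00102), and a second probe set gave the same calls. The Q20 and Q111 calls held under each alternative and without any single array. The Q91 call ended without Q91 replicate 1 or 2 (adjusted p of 0.0951 and 0.179). The knock-out call ended without any 1 of control replicates 1, 2 or 4 or knock-out replicates 1, 3, 5 or 6 (adjusted p of 0.0566 to 0.0707), and its change was 0.39 (adjusted p = 0.156) and 0.22 (adjusted p = 0.429) in the 2 sets of replicates.

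Top2a, the topoisomerase that untangles sister chromatids, and Birc5, which encodes survivin of the chromosomal passenger complex, rose in Q20. Top2a was 13.93, 13.85 and 14.04 in Q20, 13.66, 13.50 and 13.71 in Q50, 13.28, 13.22 and 13.60 in Q91 and 13.85, 13.76 and 13.17 in Q111, with 13.31 to 13.51 in the knock-out (median 13.36) and 13.21 to 13.64 in control (median 13.30). All Q20 arrays and 2 of the 3 Q111 arrays exceeded every control, as did 2 of the 3 Q50 arrays, and the change in Q20 was 0.56 (SE 0.13, limma adjusted p = 0.0045). Birc5 was 13.84, 13.79 and 13.84 in Q20, 13.15, 13.34 and 13.80 in Q50, 13.60, 13.25 and 13.30 in Q91 and 13.67, 13.58 and 13.28 in Q111, with 13.08 to 13.29 in the knock-out (median 13.20) and 13.23 to 13.37 in control (median 13.28). Again all Q20 arrays exceeded every control, with 1 Q50, 1 Q91 and 2 Q111 arrays, and the Q20 change was 0.54 (SE 0.11, adjusted p = 0.00197). In Q50 the single rise was Mki67, by 0.40 (SE 0.12, adjusted p = 0.0432), with 11.23, 11.24 and 11.46 against control arrays of 10.61 to 11.08. Plk1, the Polo-like kinase, fell by 0.29 in Q20 (SE 0.10, adjusted p = 0.0412). The Mki67 call ended without any 1 of control replicates 1 to 4 or Q50 replicates 2 or 3 (adjusted p of 0.0503 to 0.166), and under both other scalings of the arrays. Plk1 lost its call without any 1 array other than control replicate 5 (adjusted p of 0.0531 to 0.169). The kinase Aurkb and the anaphase activator Cdc20 passed in no comparison, although 2 of the 3 probe sets of Cdc20 were called in Q91, where the one used here changed by 0.29 (adjusted p = 0.0527).

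**Figure D4:**
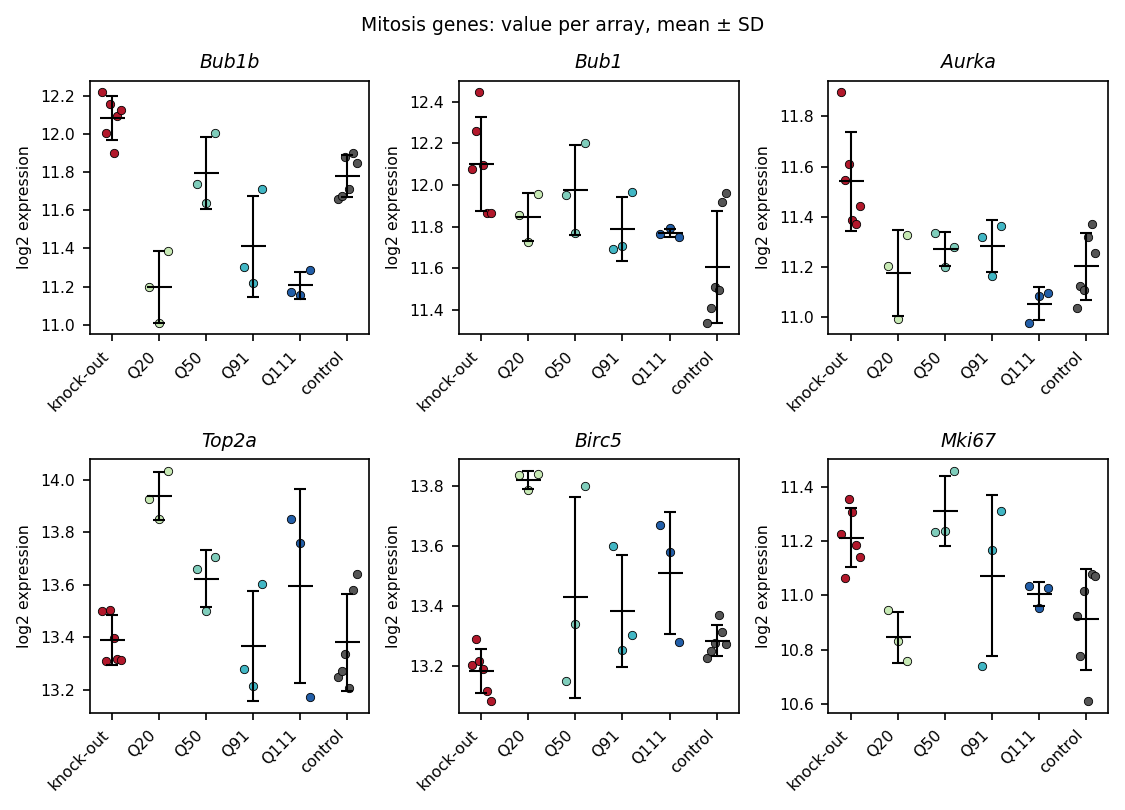
Log2 value per array (points), group mean (dash) and SD (bars) for 6 mitosis genes. Bub1b is above control on all knock-out arrays and below it on all Q20 and Q111 arrays, while Top2a and Birc5 are highest in Q20.

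Set against the mean of the 4 knock-in lines, without control, the knock-out was higher for most of these genes. Of 37 genes 20 were higher and 3 lower (62.2%, against 46.7% of all probe sets, of which 20.1% were higher and 26.6% lower). After median centring 23 genes were higher and 2 lower, and the probe sets split into 4729 higher and 3874 lower. Their median difference was 0.24, and that of all probe sets -0.03. By role, 9 of 15 cyclin, kinase and RB/E2F genes were higher and 0 lower, 8 of 13 replication genes were higher and 1 lower, and 3 of 9 mitosis genes were higher and 2 lower. The largest difference was in Cdkn1b, at 1.27 (SE 0.22, limma adjusted p = 6.69e-05), for which every knock-out array lay above every knock-in array. Ccnd3 followed at 0.84 (SE 0.16, adjusted p = 0.000232), Ccnd2 at 0.71 (adjusted p = 0.0332) and Bub1b at 0.68 (SE 0.08, adjusted p = 1.03e-06).

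Knock-out arrays also lay above all 12 knock-in arrays for Ccnb2 (0.41, limma adjusted p = 6.14e-05), Pcna (0.43, adjusted p = 5.04e-06), Rrm2 (0.43, adjusted p = 4.09e-05) and Aurka (0.35, adjusted p = 0.00108). Mcm3 and Cdt1 differed by 0.57 each (adjusted p = 0.000195 and 9.96e-05), Rb1 by 0.53 (adjusted p = 0.0336) and E2f1 by 0.42 (adjusted p = 0.00851). The 3 genes lower in the knock-out were Cdc6 (-0.36, adjusted p = 0.00378), Birc5 (-0.35, adjusted p = 0.00127) and Top2a (-0.24, adjusted p = 0.0412). The remaining genes higher in the knock-out, namely Ccna2, Cdk1, Cdk4, Mcm2, Mcm5, Mcm6, Mcm7 and Bub1, differed by 0.17 to 0.42. The calls of Ccnd2, Rb1, Mcm2, Bub1 and Top2a ended when any of 7, 8, 10, 13 and 11 of the 18 arrays was left out (adjusted p of 0.0506 to 0.153). For Mcm2, Mcm6 and Top2a the other tested probe set was not called here. With knock-out replicates 1 to 3 alone 11 genes passed, and with replicates 4 to 6 alone 15. The shares of all probe sets in these fits are not given here.

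**Figure D5:**
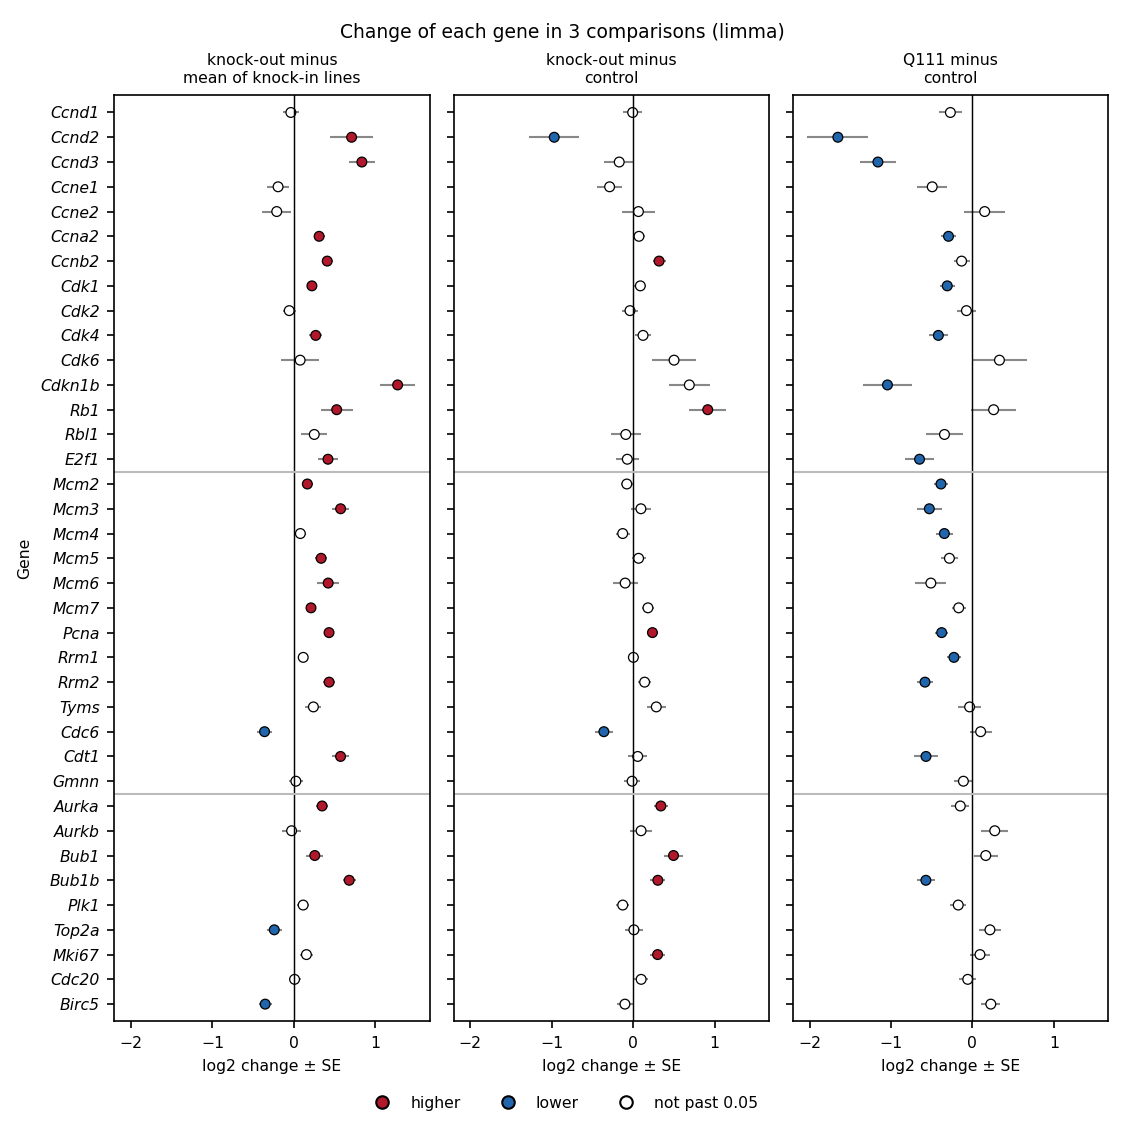
Log2 change with its SE for each of the 37 genes in the knock-out against the mean of the knock-in lines, the knock-out against control and Q111 against control, red where higher, blue where lower and white where the limma adjusted p did not pass 0.05. The left panel has 20 red and 3 blue points, the middle 7 and 2, and the right 0 and 15. Both comparisons with control share the control arrays, and both knock-out comparisons share the knock-out arrays.

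Repeat length gave no trend in these genes at this number of arrays. Over the 12 knock-in arrays 0 of the 37 slopes passed the limma test (smallest adjusted p = 0.985; 0.0445% of all probe sets passed, 0.0111% with a rising and 0.0334% with a falling slope), and 1 gene, with a negative slope, had an unadjusted p under 0.05 (2.70% of the genes and 4.58% of all probe sets). The median slope was -0.13 in log2 per 100 repeats, and -0.01 for all probe sets.

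The lines did differ from each other for a few genes. An F-test among the 4 lines passed for 3 of the 37 genes (8.11%, against 9.74% of all probe sets), so the share past the adjusted threshold was near the background. At an unadjusted p under 0.05 the same F-test counted 19 of the 37 genes (51.4%, against 26.8% of all probe sets). Bub1b (adjusted p = 0.0144) was highest in Q50 and lowest in Q20, with line means 0.60 apart. Cdk4 (adjusted p = 0.0323) and Rrm2 (adjusted p = 0.0482) were highest in Q50 and lowest in Q111, 0.59 and 0.43 apart. With the 12 knock-in arrays alone in the fit none of the 3 passed. In that fit 6 of the 37 genes had an unadjusted p under 0.05 (16.2%, against 14.7% of all probe sets). Q50 replicate 3, the array with the high Actb difference, had the highest Cdk4 and Bub1b values among the knock-in arrays, and without it the adjusted p was 0.0778 for Bub1b. The Cdk4 call ended without Q50 replicate 3 or any 1 Q111 array (adjusted p of 0.0583 to 0.119) and the Rrm2 call without any 1 of 10 of the 12 arrays (adjusted p of 0.0581 to 0.216).

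Other genes of the same pathways numbered 95 listed, of which 92 passed the filter. In Q111 3 were higher and 18 lower, in Q91 7 higher and 15 lower, in Q20 6 higher and 15 lower, in Q50 5 higher and 0 lower and in the knock-out 5 higher and 5 lower. These 22.8%, 23.9%, 22.8%, 5.43% and 10.9% of genes were below or near the shares of all probe sets called in either direction. By direction, the lower calls were 19.6% in Q111 and 16.3% in both Q91 and Q20, against 9.49%, 9.49% and 9.00% of all probe sets. Their median change was -0.15 in Q111 and -0.07 in Q20. Against the mean of the knock-in lines 27 were higher and 13 lower in the knock-out, with a median of 0.10. These 43.5% were below the 46.7% of all probe sets called in either direction. By direction, 29.3% were higher and 14.1% lower, against 20.1% and 26.6% of all probe sets.

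Among the G1/S genes, the repressor E2f8 fell by 0.99 in Q111 (SE 0.15, limma adjusted p = 0.000109) and by 0.78 in Q20 (adjusted p = 0.000979), and the activator E2f2 by 0.90 in Q111 and by 0.76 in Q20. The Myc family gene Mycn rose in Q20, Q91 and Q111 by 0.66, 0.70 and 0.50 and fell by 0.44 in the knock-out (adjusted p = 0.0227). The kinase inhibitor gene Cdkn2b rose by 1.21 in Q91 (adjusted p = 0.00627), and another, Cdkn1a, rose by 0.93 in Q20 (adjusted p = 0.0403). Cdkn2b was low, averaging 5.10 in control and 6.31 in Q91 where the filter was at 5, and the Cdkn1a arrays of Q20 overlapped those of control.

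Of the replication genes beyond the 13, Gins3, a subunit of the GINS complex that activates the helicase, fell by 0.98 in Q91 (SE 0.16, limma adjusted p = 0.00016), by 0.71 in Q111 and by 0.55 in Q20. Its knock-out arrays all lay above the knock-in arrays, by 0.84 on average (adjusted p = 3.81e-06). The origin recognition gene Orc1 and the single-strand binding gene Rpa1 fell in the knock-out, by 0.34 and 0.31 (adjusted p of 0.0176 and 0.017).

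Among further mitosis genes, Kif23 and Nusap1, which act on the spindle, rose by 0.49 each in the knock-out (limma adjusted p = 0.000843 and 0.00478), with all arrays above control. They were also called higher in the lines, Kif23 by 0.31 in Q20, 0.50 in Q50 and 0.31 in Q91 and Nusap1 by 0.43 in Q50. Cenpe, a kinetochore motor, rose in Q20, Q50 and Q91 (0.44, 0.54 and 0.34), and Hmmr, which binds spindle microtubules, rose by 0.51 in Q20. Fzr1, the Cdh1 activator of the anaphase-promoting complex, fell by 0.55 in Q20, by 0.40 in Q91 and by 0.52 in Q111. Nek2, a centrosomal kinase, fell by 0.88, by 0.70 and by 0.69 in the same lines, and Ube2c, a ubiquitin-conjugating enzyme of that complex, fell by 0.49 in Q111 (adjusted p = 0.000652).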

How the data were processed

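Total RNA of 24 samples was measured on 1-colour Affymetrix MG 430 2.0 arrays. The deposited log2 values of 45101 probe sets come from GCRMA, per the submitters' processing notes. This method subtracts a background modelled on probe sequence, brings the arrays to 1 distribution and summarises probes, so a global shift between groups can be removed or spread over genes. No source used here gives its version, and the values' own range showed the log2 scale. No 2 arrays held identical values.

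The 64 control probe sets were left out, and the 17980 probe sets (39.9% of the others) that reached 5 in log2 on 3 or more arrays were tested. GEO's platform annotation gave 1 gene to 34945 probe sets, several to 932 and none here to 9160, and only the first were named. All arrays entered 1 linear model (limma 3.58.1 in R 4.3.3) of group means, which left 18 residual degrees of freedom, with two-sided tests and Benjamini-Hochberg adjustment over all tested probe sets, at 0.05. A call means past that threshold. The repeat slope used the 12 knock-in arrays. Values printed with each array are given for genes called with a change of 0.5 or more, and other pathway genes are named as up to 3 called per list, comparison and direction, by smallest p. The fits were tested on simulated data. The genes and lists were chosen with earlier results of these data known. The number of arrays limits precision. Alternatives were other scalings, filters, probe set summaries, array weights, a replicate block, left-out arrays and subsets of replicates.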

Additional observations from a re-analysis of the deposited data

Results flagged for a closer look

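In groups of 6 arrays, a single array stood far from the other 5, by Dixon's test, in 5 of 74 gene and group combinations examined, and chance gives about 1 in 20. Of the 5, 4 were on knock-out replicate 4: Ccnd3 at 11.84 with the next array at 12.22, Ccne1 at 11.43 with the next at 12.01, Rbl1 at 7.49 with the next at 7.02, and Aurkb at 9.67 with the next at 9.42. The fifth was Cdkn1b on control replicate 4, at 8.65 with the next at 9.18.

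A difference among the 4 knock-in lines, by limma's F-test over all groups, passed for Cdk4 (adjusted p = 0.0323), Rrm2 (adjusted p = 0.0482) and Bub1b (adjusted p = 0.0144), each of them highest in Q50.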

How the results depend on the processing

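The cell cycle genes had 70 calls, 3 of them differences among lines, which have no direction. None of the others changed direction under any alternative run. Of the 70, 17 held under all alternatives and under each left-out array, and 41 under each left-out array. Several probe sets were tested for 22 genes. Among these, 4 calls in Q20, 2 in Q111 and 3 against the knock-in lines were shared by no other probe set of the gene. Counts of genes called are given as alternative against 9 in the knock-out, 12 in Q20, 2 in Q50, 6 in Q91, 15 in Q111, 23 in knock-out against knock-in and 3 among lines. With replicates 1 to 3 alone of control and knock-out they were 3 in the knock-out and 11 against the knock-in lines, and with replicates 4 to 6 alone 0 in the knock-out, 2 in Q20, 0 in Q50, 3 in Q91, 4 in Q111 and 15 against the knock-in lines. Median centring gave 19 in Q20 and 10 in Q91. Array weights gave 19 in Q20, 10 in Q91, 25 in Q111 and 8 among lines. The share of all probe sets called also moves with the setting and is not given for each of these counts. For the knock-out, array weights called 12 genes and 27.9% of all probe sets, against 14.6% of all probe sets in the main fit. In Q50, no filter on low values gave 1 and only the 2 groups in the fit gave 1. Averaging a gene's probe sets gave 5 among lines, and the 12 knock-in arrays alone gave 0 (limma). In that last fit 6 genes had an unadjusted p under 0.05 (16.2%, against 14.7% of all probe sets).

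Leaving out each array gave 5 to 9 in the knock-out (5 without control replicate 4, knock-out replicate 1 or knock-out replicate 5), 8 to 13 in Q20, 1 to 4 in Q50 (1 without any of control replicates 1 to 4, 4 without Q50 replicate 1), 4 to 9 in Q91, 10 to 16 in Q111, 18 to 22 against the knock-in lines, 0 to 0 for the slope and 1 to 8 among lines (1 without Q50 replicate 3 or Q111 replicate 1, 8 without Q91 replicate 1). The share of all probe sets called moved as well. It was 11.1% to 12.7% in the knock-out, 14.7% to 24.4% in Q20, 4.11% to 11.2% in Q50 and 12.3% to 23.1% in Q91. In Q111 it was 16.6% to 25.7%, against the knock-in lines 42.3% to 48.6%, for the slope 0% to 0.0890% and among lines 6.23% to 15.6%. A line left with 2 arrays shares the spread of the other groups in these fits.

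Arrays share replicate numbers across groups, but the numbers do not pair them: correlations of same-numbered deviations were -0.41 to -0.26 for the knock-out and from -0.11 to 0.13 in the lines. With the replicate number as a block the counts were 6 in the knock-out, 9 in Q20, 1 in Q50, 5 in Q91, 13 in Q111, 18 against the knock-in lines, 0 for the slope and 1 among lines. Over all probe sets, calls split into 2921 higher and 1618 lower in Q20 and 2909 and 1706 in Q111, but 2205 and 2827, and 2200 and 3161, after median centring. The causes of these changes were not tested. Low values near background compress changes, and the number of arrays limits what could be called.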
